A study of Homo sapiens with 3 samples.

Results

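The genes of mitosis and of the mitotic spindle were examined in stratified cultures of SV40-immortalized human corneal epithelial (iHCE) cells. The list held 46 genes of cell division, chosen by name with earlier results of these data known. Several of them are among the genes that the study lists as most over-expressed in iHCE. Of the 46 genes 45, read by 68 probe sets, had a probe set on the array that was annotated to that gene alone. The exception was *NUF2*, a kinetochore gene, for which no expression value is given and which enters only the counts of promoters. The deposited table covered 11963 genes in all, read by 19071 probe sets annotated to 1 gene each. All samples were of 1 kind. The cells carry the large T antigen of SV40, were seeded at passages 22 to 23 on collagen-coated filters in medium with 15% serum and 10 ng/ml EGF, and were lifted to an air-liquid interface after a submerged phase. RNA of 3 independent culture batches (cultures 1, 2 and 3), with resistances of 489, 439 and 468 Ω · cm2, was hybridized to 1 Affymetrix HG-U133A array each. The arrays of the native corneal epithelium were not analysed here, so every value describes the iHCE cultures and no value compares them with tissue.

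In a dividing cell, the kinase CDK1 with its cyclins starts mitosis, condensin compacts the chromosomes, and kinesin motors and their partners build the spindle. Kinetochores attach each chromosome to the spindle, and the spindle checkpoint holds back the anaphase-promoting complex (APC/C) until all are attached. Once the APC/C is active it marks securin and the B-type cyclins for destruction, the sister chromatids part, and the midzone of the spindle directs the cut between the daughter cells. Many of these genes are transcribed late in the cell cycle, through promoter elements read by the MuvB complex, MYBL2, FOXM1 and NF-Y. In the normal stratified corneal epithelium division is mostly limited to the basal layer. The large T antigen binds the retinoblastoma proteins and p53, both of which hold the cell cycle back.

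Values are log2 expression values computed by the authors with RMA, and a gene with several probe sets was read at the one with the highest mean. The background level of an array was set at the 95th percentile of its readings for 57 genes that mark tissues other than the cornea, which came to 7.20, 7.04 and 7.22 in cultures 1, 2 and 3. Above background means over this level in every culture. Probe sets differ in affinity, so a higher reading of one gene than of another is not a larger amount of RNA. Culture 1 stood apart: 185 probe sets lay at least 1 log2 unit from culture 2 and 222 from culture 3, while only 13 separated cultures 2 and 3 by as much, and all 24 probe sets of the added poly-A control transcripts read lowest in it. Of the corneal epithelial markers 0 of 9 were above background, with the corneal keratins *KRT3* and *KRT12* at means of 4.86 and 5.26. All 9 are among the genes that the study lists as most under-expressed in iHCE, so a low count was partly built into the choice. Of 6 keratin and adhesion genes listed for simple epithelia (*KRT7*, *KRT8*, *KRT18*, *KRT19*, *EPCAM* and *CDH1*) 6 were above background, with *KRT18* at 12.58. The study reports *KRT7*, *KRT18* and *EPCAM* among these as over-expressed. Markers of keratocytes and fibroblasts (0 of 9), melanocytes (0 of 6), immune cells (0 of 7) and endothelium (0 of 5) were not above background. Over all genes the share above background was 43.6%. In RNA from a whole culture, the share of cells in division and the RNA per dividing cell cannot be told apart.

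The mitosis genes were read above background almost throughout. Of the 45 measured genes 43 were above background in all 3 cultures, where 43.6% of all genes were. The list was chosen with earlier results of these data known, so a high share was partly built into the choice. Of their 68 probe sets 56 were above background, where 35.2% of all probe sets were. The median of the gene means was 9.81, beside 6.98 over all genes. The exceptions were the kinesin gene *KIF14* and the kinase gene *PLK1*, which both stayed under the level of culture 1 and exceeded those of cultures 2 and 3. Without culture 1 both were above background, giving 45 of 45 genes, beside 45.6% of all genes, and 58 of 68 probe sets, beside 37.5%. Without culture 2 or 3 the counts stayed at 43 genes (43.8% and 45% of all genes) and 56 probe sets (35.4% and 36.4%).

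**Figure D1:**
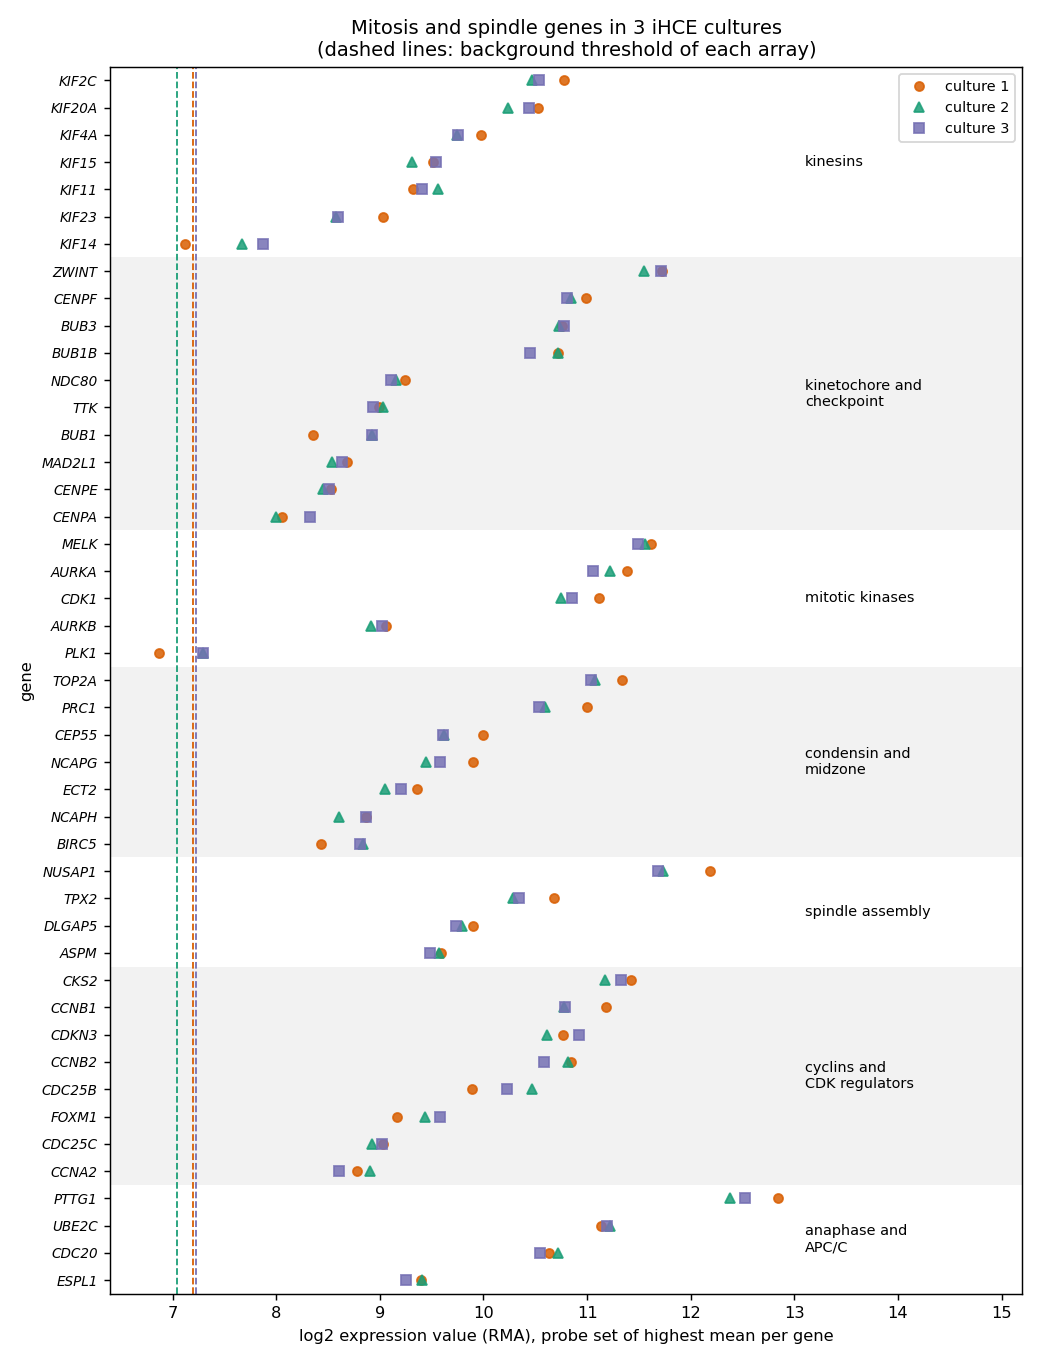
Log2 expression value of the 45 measured mitosis and spindle genes (one row each, grouped by role) in cultures 1, 2 and 3, read at the probe set of highest mean. Dashed lines mark the background level of each array (7.20, 7.04 and 7.22), and only *KIF14* and *PLK1* have a point to the left of its own line, that of culture 1.

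The count fell when the highest panel value was taken as the background level, and changed little at the other levels. At the 90th percentile of the panel 44 member genes and 58 probe sets were above background, beside 49.2% of all genes and 40.4% of all probe sets. At the panel median plus 3 scaled median absolute deviations there were 43 and 55, beside 35.3% and 27.5%. The highest panel value was on each array that of 1 gene, *MBP*, at 8.34, 9.26 and 9.20 in cultures 1, 2 and 3. The next highest panel gene, *SFTPB*, read 7.58, 7.46 and 7.41. At the level of *MBP* there were 30 and 36, beside 14.7% and 11.1%. The genes that lost the call there were *AURKB*, *BIRC5*, *BUB1*, *CCNA2*, *CDC25C*, *CENPA*, *CENPE*, *ECT2*, *KIF23*, *MAD2L1*, *NCAPH*, *NDC80* and *TTK*.

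Many members shared letters in their promoters, which were not used to choose them. Windows from 250 bases before to 50 bases after the gene start (RefSeq, GRCh38.p14) were at hand for 39 of the 46 genes, 50 windows in all, of which some of the same gene overlap. The CHR element, a site of the MuvB complex, was searched as TTTGAA or TTCGAA on either strand, and the CCAAT box, a site of NF-Y, as CCAAT on either strand. The motifs can share an end base, as where CCAAT runs into TTTGAA. CHR letters occurred in 34 of 50 member windows (68%), beside 16.4% of all 35116 windows. CCAAT letters occurred in 37 (74%), beside 34.6%, and both in 28 (56%), beside 6.38%. By gene, 30 of 39 had CHR letters in some window (76.9%, beside 19.5% of all 27305 genes), 8 of 9 in the kinetochore and checkpoint group and 2 of 4 among the kinases. Of the 44 CHR matches 16 began from position -40 to -10, counted back from the start (36.4%, beside 9.3% of the matches in all windows), and of the 71 CCAAT matches 14 began from position -60 to -51 (19.7%, beside 6.05%). A site that lies in overlapping windows of the same gene counts once for each window, among the members and over all windows alike. Both intervals were chosen after the positions were seen. A match gives letters only and does not show a bound site.

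The 100 bases before the start are shown for 1 gene of each role group with TTTGAA there, because they show how the letters are spaced. Among such genes with a single window, the one with most CCAAT letters in the stretch was taken, then the first by alphabet. The examples thus favour CCAAT letters. Of the genes passed over, *NCAPG* and *CENPA* have none there, and *ESPL1* and *KIF4A* have 1 each. *CENPA* came after *BUB1B* by alphabet only. No spindle assembly gene had a single window of this kind. They are written 5′ to 3′ on the gene's strand, with CHR and CCAAT letters (ATTGG on the other strand) in capitals. *CCNB2* (chr15:59105046-59105145, plus strand) has CCAAT letters that begin at positions -87 and -54 and the CHR at -29. In *CDC20* (chr1:43358881-43358980, plus strand) the CHR begins at -65, between CCAAT letters at -100 and -55. *PRC1* (chr15:90994536-90994635, minus strand), *KIF23* (chr15:69414249-69414348, plus strand) and *PLK1* (chr16:23678789-23678888, plus strand) have 1 of each, with the CHR at -20, -55 and -29. *BUB1B* (chr15:40160969-40161068, plus strand) has a CHR at -23 and no CCAAT letters.
CCNB2: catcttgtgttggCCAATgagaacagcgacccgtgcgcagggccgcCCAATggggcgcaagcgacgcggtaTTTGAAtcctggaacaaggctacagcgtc
CDC20: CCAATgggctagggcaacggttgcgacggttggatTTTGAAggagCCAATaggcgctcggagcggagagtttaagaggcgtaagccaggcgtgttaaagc
PRC1: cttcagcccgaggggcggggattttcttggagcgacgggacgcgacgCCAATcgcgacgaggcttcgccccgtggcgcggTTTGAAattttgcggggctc
KIF23: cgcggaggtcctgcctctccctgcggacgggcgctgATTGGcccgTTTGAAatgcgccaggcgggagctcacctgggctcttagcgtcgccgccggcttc
PLK1: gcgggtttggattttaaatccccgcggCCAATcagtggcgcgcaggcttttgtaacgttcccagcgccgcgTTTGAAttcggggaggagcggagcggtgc
BUB1B: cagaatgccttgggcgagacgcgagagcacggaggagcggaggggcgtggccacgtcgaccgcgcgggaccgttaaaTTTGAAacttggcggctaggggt
Of these genes *PLK1* was not above background on all arrays, and the others were.

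**Figure D2:**
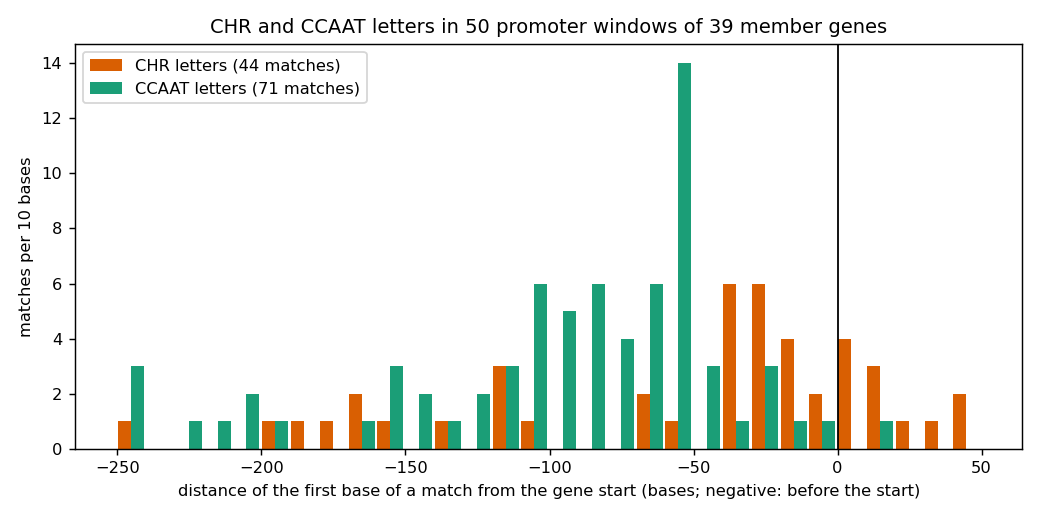
Number of CHR (44) and CCAAT (71) matches per 10 bases along 50 promoter windows of 39 member genes, by the distance in bases of the first base of the match from the gene start. The interval from -60 to -51 holds 14 CCAAT matches, and 16 CHR matches begin from -40 to -10.

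The kinesins, microtubule motors of the spindle, were above background in 6 of 7 genes, with gene means from 7.55 to 10.59. *KIF2C*, which takes microtubules apart at the centromere, read 10.78, 10.47 and 10.54 in cultures 1, 2 and 3 (10.59 ± 0.16, SD, n = 3). *KIF20A*, a motor of the midzone needed for cytokinesis, read 10.52, 10.24 and 10.44. *KIF4A*, a chromokinesin that also shapes the midzone, read 9.98, 9.74 and 9.75. In all 3 of these genes the highest value was that of culture 1, and the values lay within 0.31 log2 units of each other. *KIF15* and *KIF11*, both motors that push the spindle poles apart, had means of 9.46 ± 0.13 and 9.43 ± 0.12 (SD, n = 3). *KIF23*, a subunit of the centralspindlin complex of the midzone, read 9.03, 8.57 and 8.59. *KIF14*, which acts in cytokinesis, read 7.12, 7.67 and 7.87 (7.55 ± 0.39), and had the widest range of the group, 0.76. These last 2 genes had their outlying value in culture 1, on opposite sides.

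Genes of the kinetochore and of the spindle checkpoint were above background in all 10 measured cases, with gene means from 8.12 to 11.66. *ZWINT*, which links the outer kinetochore to checkpoint proteins, read 11.72, 11.54 and 11.72 (11.66 ± 0.10, SD, n = 3). *CENPF*, a large protein of the outer kinetochore, read 10.99, 10.84 and 10.81. *BUB3*, a checkpoint protein, read 10.75, 10.73 and 10.77 at its probe set of highest mean, the narrowest spread of any member probe set (SD 0.02). Its other probe sets, all above background, had SDs of 0.33, 0.19 and 0.21. The checkpoint genes *BUB1B*, *TTK* and *MAD2L1* had means of 10.63 ± 0.16, 8.99 ± 0.05 and 8.62 ± 0.07. *NDC80*, which grips the microtubule, had a mean of 9.17 ± 0.07. *BUB1*, a checkpoint kinase, read 8.35, 8.93 and 8.92, and culture 1 was the low one. The lowest means were those of *CENPE*, a kinetochore motor, at 8.53, 8.45 and 8.51, and of *CENPA*, the histone H3 variant of centromeres, at 8.06, 8.0 and 8.32. The median SD of the group's gene readings was 0.09, beside 0.14 over all genes, but over all 19 probe sets of the group it was 0.14, as over all probe sets.

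Of the 5 kinases outside the checkpoint 4 were above background. *MELK*, a kinase abundant in dividing progenitor cells, read 11.62, 11.56 and 11.50 (11.56 ± 0.06, SD, n = 3). *AURKA*, the kinase of the spindle poles, read 11.39, 11.22 and 11.05. *CDK1*, which drives entry into mitosis, read 11.11, 10.74 and 10.85. In these genes culture 1 was again the highest. *AURKB*, the kinase of the chromosomal passenger complex, read 9.06, 8.91 and 9.02. *PLK1*, which acts at centrosomes, kinetochores and the midzone, read 6.87, 7.29 and 7.29 (7.15 ± 0.24), and lay at -0.33 from the background level in culture 1. It has a single probe set and so no second reading.

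All 7 genes of the condensin and midzone group were above background. *TOP2A*, which untangles the chromatids, read 11.33, 11.08 and 11.03 (11.15 ± 0.16, SD, n = 3). *PRC1*, which bundles the antiparallel microtubules of the midzone, read 11.00, 10.59 and 10.54. *CEP55*, which recruits the abscission machinery, read 10.00, 9.62 and 9.61. Culture 1 was highest in each, and the ranges over the cultures were 0.30, 0.47 and 0.39. The condensin subunits *NCAPG* and *NCAPH* read 9.90, 9.44 and 9.58 (9.64 ± 0.24) and 8.87, 8.60 and 8.86 (8.78 ± 0.15). *ECT2*, the exchange factor that activates RhoA at the cleavage site, had a mean of 9.20 ± 0.16. *BIRC5* (survivin), a subunit of the chromosomal passenger complex, read 8.44, 8.84 and 8.81, with culture 1 the lowest. The median SD of the group's gene readings was 0.22, the largest of the 7 role groups.

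The 4 spindle assembly genes were all above background. *NUSAP1*, a microtubule-binding protein of the spindle, read 12.19, 11.73 and 11.68 (11.87 ± 0.28, SD, n = 3). *TPX2*, which activates *AURKA* protein on spindle microtubules, read 10.68, 10.29 and 10.35. *DLGAP5*, which stabilizes the spindle fibres near the chromosomes, read 9.90, 9.80 and 9.74. *ASPM*, a protein of the spindle poles, read 9.59, 9.57 and 9.49. Culture 1 had the highest value in each of the 4.

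The group of cyclins and CDK regulators, which also holds *FOXM1*, was above background in 8 of 8 genes. *CKS2*, a small protein that binds CDK1, read 11.42, 11.17 and 11.32 (11.31 ± 0.13, SD, n = 3). *CCNB1*, the main B-type cyclin of mitosis, read 11.18, 10.78 and 10.79. *CCNB2*, its relative, read 10.85, 10.82 and 10.59 (10.75 ± 0.14). *CDKN3*, a phosphatase that acts on cyclin-dependent kinases, read 10.77, 10.61 and 10.92. *CDC25B* and *CDC25C*, phosphatases that activate CDK1, had means of 10.20 ± 0.29 and 8.99 ± 0.06, and for *CDC25C* the values were 9.03, 8.93 and 9.02. *CCNA2*, the cyclin of S phase and G2, read 8.78, 8.90 and 8.60. *FOXM1*, a transcription factor of the G2/M program, had a mean of 9.39 ± 0.21. Culture 1 was the highest in 4 of the 8 genes and the lowest in 2.

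The 4 genes of anaphase and of the APC/C were above background. *PTTG1* (securin), the inhibitor of separase, read 12.84, 12.38 and 12.53 (12.58 ± 0.24, SD, n = 3). *UBE2C*, the ubiquitin-conjugating enzyme of the APC/C, read 11.13, 11.22 and 11.19. *CDC20*, the activator of the APC/C that the checkpoint restrains, read 10.63, 10.72 and 10.55. *ESPL1* (separase), the protease that cleaves cohesin, read 9.40, 9.41 and 9.25. Apart from *PTTG1* these genes varied by no more than 0.17 log2 units between the cultures. The only probe set of *PTTG1* is marked _x_at, a mark for probes that may bind other transcripts, and its close relative *PTTG2* read 4.44, 4.49 and 4.51 at its own probe set. The readings of *BUB3*, *CENPA* and *FOXM1* also came from probe sets with this mark. A low reading of *PTTG2* does not show which transcripts the *PTTG1* probe set bound, and this was not tested.

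Different probe sets of a gene often gave different readings, as over the whole array. Among the 13 members with several probe sets, the means of the lowest and highest differed by over 1 log2 unit in 10, where 68.6% of all genes with several probe sets did, and this difference exceeded the widest range between cultures in 12, where it did in 86.5% of all such genes. The exception was *CCNA2*, whose probe sets differed by 0.07 in mean. *CENPF* had the largest gap, 7.04. Its lower probe sets read 6.36, 6.68 and 7.07 and 3.67, 3.87 and 3.96 in cultures 1, 2 and 3. The third probe set of *AURKA* read 4.95, 4.92 and 5.35, below background, while its second read 11.15, 10.93 and 10.94. *BUB1* was above background at 1 of 5 probe sets, and the other 4 had means from 3.84 to 5.87. These read 3.82, 3.80 and 3.91, then 4.58, 4.05 and 4.33, then 4.53, 4.45 and 4.58, and last 5.86, 6.09 and 5.65, far under the background level in every culture. *CDC25C* was above background at 1 of 3, with lower readings of 5.34, 5.42 and 5.16 and of 5.70, 5.91 and 5.89. *BIRC5* was above background at 2 of 3, the third reading 7.13, 6.96 and 6.97, just under the level on each array. These are the 5 members with probe sets on both sides of background, a split found in 41% of all genes with several probe sets.

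The other 5 genes with a gap over 1 log2 unit were above background at every probe set. The second probe set of *NUSAP1* read 7.62, 7.72 and 7.79, the reading closest above the background level of the members called. That of *KIF2C* read 8.28, 7.84 and 8.11. *BUB3* was read by 4 probe sets with means of 8.72, 10.01, 10.36 and 10.75. The lower probe set of *NCAPG* read 8.67, 7.89 and 7.97, and that of *TOP2A* 9.37, 10.38 and 10.37. For *TOP2A* culture 1 was thus the lowest at one probe set and the highest at the other. The 3 probe sets of *CDK1* (means of 9.98, 10.01 and 10.90) and the 2 of *ESPL1* (9.00 and 9.35) lay closer together.

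**Figure D3:**
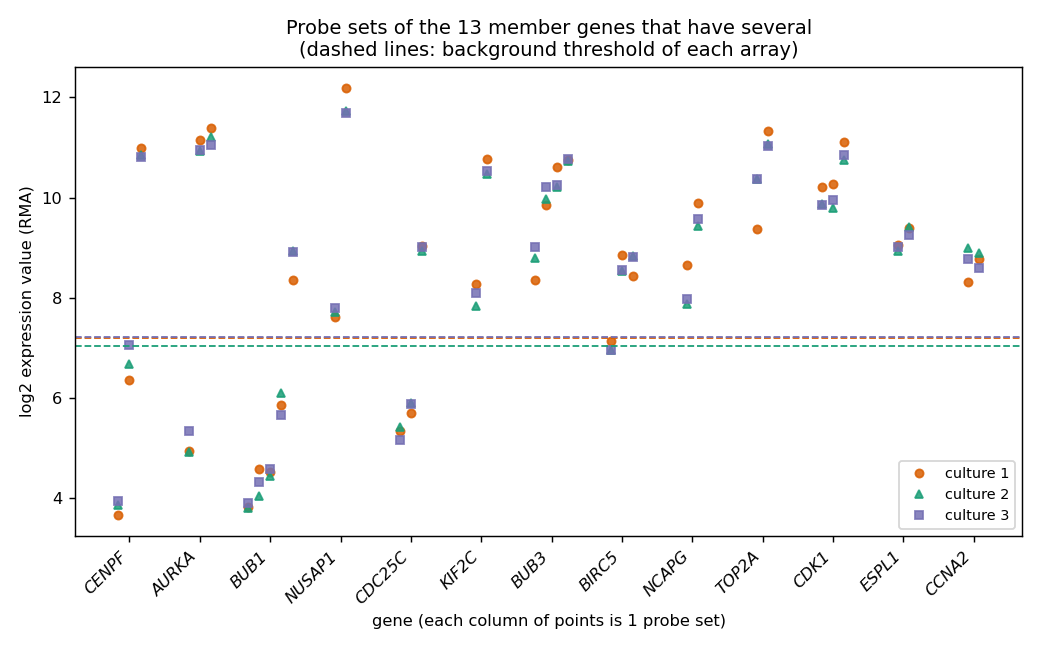
Log2 expression value of each probe set of the 13 member genes that have several, in cultures 1, 2 and 3 (each column of points is 1 probe set, ordered by mean within a gene). Dashed lines mark the background level of each array. *CENPF*, *AURKA*, *BUB1*, *CDC25C* and *BIRC5* have probe sets on both sides of it.

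The spread between the culture batches was about that of all probe sets. The SD over the 3 cultures was under 0.25 log2 units at 56 of the 68 probe sets, where 81.9% of all probe sets had such an SD, and its median was 0.16, beside 0.14 over all probe sets. A range over 0.5 was found at 10 of 68 probe sets, beside 15.9% of all. The 5 widest ranges belonged to the lower probe set of *TOP2A* (1.01), the lower one of *NCAPG* (0.78), *KIF14* (0.76), the middle one of *CENPF* (0.71), which was below background, and the lower one of *CCNA2* (0.70), which read 8.31, 9.00 and 8.77. Culture 1 was the lowest in 4 of these and the highest in *NCAPG*. Without culture 1 the median SD of the members was 0.07, beside 0.10 over all probe sets. It was 0.165 without culture 2, beside 0.131, and 0.168 without culture 3, beside 0.124.

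Culture 1 was the highest of the cultures more often among the members than among all probe sets, by small amounts. It was the highest at 38 of the 68 member probe sets and the lowest at 16, where 38.4% of all probe sets were highest and 36.4% lowest in culture 1. Counting 1 probe set per gene, it was the highest in 28 genes, the lowest in 8 and between the others in 9, beside 40.7% highest and 34.8% lowest of all genes. The median of culture 1 minus the mean of cultures 2 and 3 was 0.09 over the member probe sets and 0.01 over all probe sets. By role group this median over probe sets was 0.28 for condensin and midzone genes, 0.22 for the kinases, 0.21 for the kinesins and 0.13 for spindle assembly. It was 0.07 for anaphase genes, 0.02 for cyclins and CDK regulators and 0.01 for kinetochore and checkpoint genes. Genes with several probe sets count more than once in these medians. At 1 probe set per gene the order differed. The medians were then 0.28 for condensin and midzone genes, 0.25 for spindle assembly, 0.19 for the kinesins and 0.09 for the kinases. They were 0.07 for kinetochore and checkpoint genes, 0.04 for cyclins and CDK regulators and 0.03 for anaphase genes. The poly-A control transcripts had medians of 5.44, 6.82 and 6.67 in cultures 1, 2 and 3, and the 3′ minus 5′ difference of the control probe sets was 1.64, 1.34 and 1.28 for *GAPDH* and 2.99, 3.25 and 3.0 for *ACTB*. Their part in the position of culture 1 was not tested. With 1 array per culture there is no test of culture 1 against the others.

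**Figure D4:**
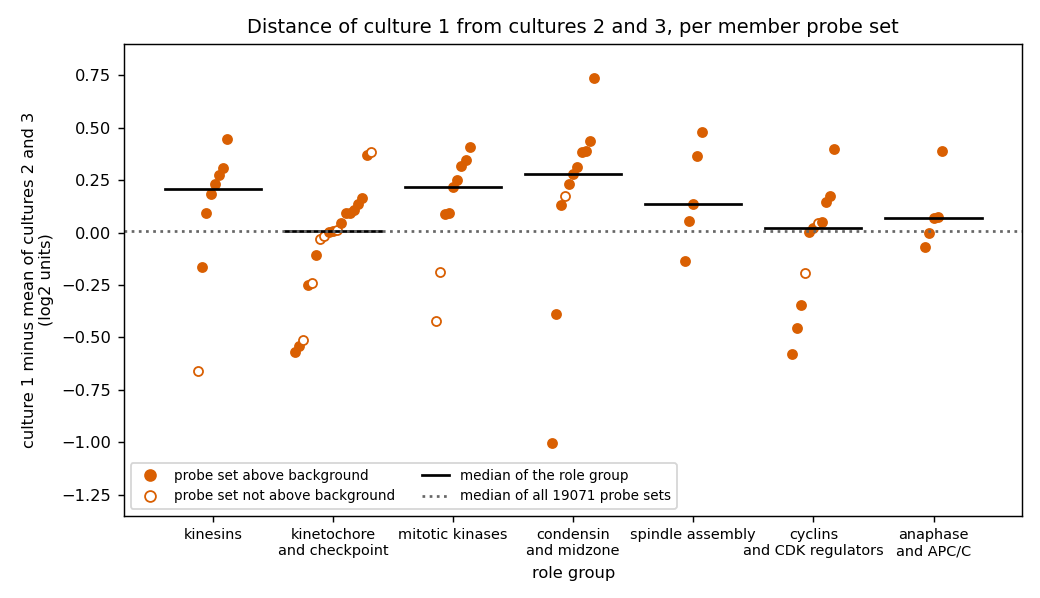
Culture 1 minus the mean of cultures 2 and 3 (log2 units) for each of the 68 member probe sets, by role group, with filled points above background, open points not above it, and a bar at the median of each group. The dotted line marks the median of all 19071 probe sets (0.01), and the lowest point, at -1.0, is the lower probe set of *TOP2A*.

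The direction of culture 1 was not the same at all probe sets of a gene. Of the 10 members with several probe sets above background, 5 had probe sets at which culture 1 differed from the mean of the others with opposite signs, where 44.7% of all such genes did. *TOP2A* differed by -1.0 at one and by 0.28 at the other. *BIRC5* read 8.85, 8.53 and 8.55 at its second probe set, a difference of 0.31, against -0.39 at its first. *BUB3* ran from -0.54 to 0.37 over its 4 probe sets, *NUSAP1* from -0.14 to 0.48 and *CCNA2* from -0.58 to 0.02. At the 3 probe sets of *CDK1* the differences were 0.32, 0.34 and 0.41, all on the same side, and the 2 of *KIF2C* gave 0.27 and 0.31.

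The rest of the mitotic machinery was read on the same arrays, with each list's count set beside the 43.6% of all genes. Subunits of condensin other than the members were above background in 6 of 6 genes, led by *SMC4* (10.51 ± 0.15, SD, n = 3) and *SMC2* (9.10 ± 0.31). Cohesin, the ring that holds the sister chromatids together, and its loaders and release factors were above background in 10 of 10, with *STAG2* at 10.58 ± 0.17 and *SMC1A* at 10.42 ± 0.08. Other mitotic kinases and their regulators were above background in 14 of 15, among them *CKS1B* (11.04 ± 0.06), a close relative of *CKS2*, and *CDCA8* (10.07 ± 0.24), a subunit of the chromosomal passenger complex. The exception was *INCENP*, the scaffold of that complex, at 5.89, 5.83 and 5.99. Genes of the centrosome and spindle were above background in 15 of 18, with *HMMR*, a microtubule-binding protein of the spindle, at 10.80 ± 0.09, *CKAP5* at 10.75 ± 0.10, and the exceptions *CEP152* (4.40 ± 0.08), *CEP192* (6.93, 7.58 and 7.70) and *HAUS6* (3.94 ± 0.09).

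Subunits and partners of the APC/C were above background in 8 of 10, with *ANAPC5* at 11.08 ± 0.20 and *ANAPC13* at 10.71 ± 0.20 (SD, n = 3). *FZR1*, the activator that follows *CDC20*, read 6.71, 6.79 and 6.88 and *ANAPC2* 7.60, 6.43 and 6.78, neither above background on all arrays. Other kinesins of mitosis or of the centrosome were above background in 4 of 6, led by *KIF18B* (9.40 ± 0.09) and *KIFC1* (8.42 ± 0.18). Not above background on all arrays were *KIF18A*, at 6.87, 7.26 and 7.70, and *KIF24*, at 4.28, 4.57 and 4.57. Kinesins of transport and of neurons were above background in 6 of 16, a share of 37.5%. *KIF5B*, the motor of conventional kinesin in most cells, read 9.27, 10.06 and 9.99 and *KIF1B* 8.75, 8.89 and 8.81. The first genes of this list in alphabetical order that were not above background were *KIF13A*, *KIF16B*, *KIF17*, *KIF1A*, *KIF1C* and *KIF21B*, with means from 5.18 to 7.08.

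Other kinetochore genes were above background in 10 of 23, a share of 43.5%. *CENPU* (10.90 ± 0.15, SD, n = 3) and *CENPN* (9.45 ± 0.23) were the highest readings. The first 6 genes not above background in alphabetical order were *CENPB*, *CENPC*, *CENPI*, *CENPO*, *CENPQ* and *CENPT*, with means from 5.62 to 7.28. In the NDC80 complex *SPC25* read 8.39, 7.82 and 8.25 and *SPC24* 6.36, 6.08 and 6.44. Regulators of the late cell cycle program were above background in 10 of 13, with *CDKN1A*, an inhibitor of cyclin-dependent kinases, at 10.33 ± 0.08 and *MYBL2* at 9.58 ± 0.26. *LIN37* (5.83 ± 0.30), *NFYA* (6.97 ± 0.27) and *RBL1* (5.72 ± 0.22) were not above background on all arrays. Of 4 measured relatives of members that are not tied to somatic division, *TOP2B* (8.67 ± 0.11), a topoisomerase also made in non-dividing cells, was above background. *CCNA1*, *AURKC* and *PTTG2* were not, with means of 5.95 ± 0.33, 5.85 ± 0.21 and 4.48 ± 0.04.

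**Figure D5:**
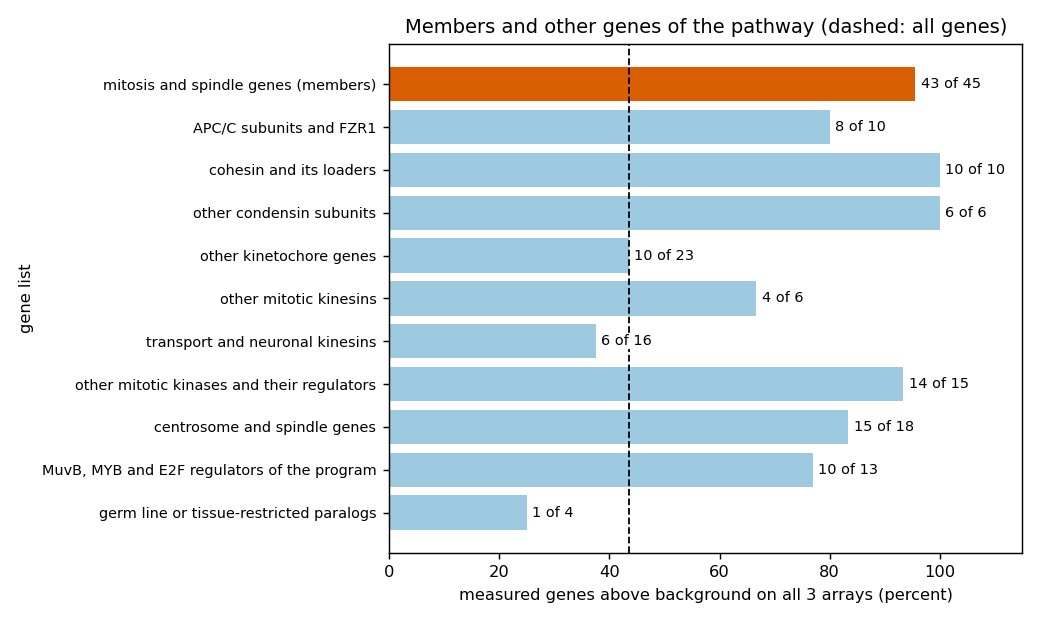
Share of measured genes above background in all 3 cultures (percent) for the 45 mitosis and spindle genes and for 10 lists of other genes of the pathway, with counts at the bars. The dashed line marks all genes (43.6%), and the lists of other kinetochore genes (10 of 23), of transport and neuronal kinesins (6 of 16) and of paralogs (1 of 4) do not exceed it.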

How the data were processed

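RNA from 3 independent iHCE culture batches was measured on 1 Affymetrix HG-U133A array each. The authors deposited log2 expression values of 22283 probe sets, computed by RMA (background correction, normalization between arrays, summary per probe set), in R 2.8.0 per the submitters' processing notes. Differences in total brightness are thereby removed and low values are compressed. The study's methods describe RMA over the culture and tissue arrays together, on probes regrouped by a custom annotation. The deposited table has the original probe sets, so it is not known here whether it came from that joint run, which would let the tissue arrays affect the values. Genes were named from the platform annotation, updated through RefSeq. Of the probe sets 19071 named 1 gene, 1043 several and 2169 were not listed, and only the first were used. Background was the 95th percentile, per array, of 57 measured of 68 listed genes of other tissues. Of these 2 were above it. The spread is the SD over 3 arrays, which limits the precision, and arrays give no counting depth. The SD holds both culture and technical variation. No groups existed to test. The members and lists were chosen with earlier results of these data known. The text names every member, the genes of each other list by rank or alphabet, and gives values per culture by a rule on level, range and probe set gaps. Values of some other members, and of *SPC24* and *SPC25*, were added after they were seen. The alternatives were 3 other background levels, the mean over probe sets, leaving out _x_at and _s_at probe sets, quantile normalization, each replicate dropped in turn, and limma 3.58.1 tested one-sided against the background level (adjusted p under 0.05). Steps ran in Python 3.11.15 and were tested on simulated data.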

Additional observations from a re-analysis of the deposited data

How the results depend on the processing

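The number of member genes above background was 30 of 45 with the highest panel value as the level (14.7% of all genes). It was 43 to 44 with the other 2 levels (49.2% and 35.3%) and 43 with the mean over probe sets (45%). Quantile normalization gave 43 (43.6%) and the one-sided limma test 44 (42.7%). Leaving out 1 replicate gave 43 to 45, and the 45 was without replicate 1. Without probe sets marked _x_at or _s_at 25 of the 29 genes still measured were above background, beside 38.4% of all genes, and *AURKA*, *CDC25C* and *CENPF* lost the call. Member probe sets above background numbered 36 of 68 with the highest panel value (11.1%), 27 of 34 without the marked ones (34.4% of all probe sets), and 56 to 58 without 1 replicate. The median SD was 0.0722 without replicate 1, and leaving out 1 replicate gave 0.0722 to 0.168, each over 2 arrays. The median of culture 1 minus the others was 0.08 to 0.10 in every setting tried. For 28 genes the call was the same under each of the 10 alternatives that read the gene. *KIF14* gained it in 5 and *PLK1* in 2. *BUB1* and *CDC25C* lost it with the mean over probe sets. For other changes the cause was not tested. No paired analysis was possible because all samples belong to 1 group.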

Other observations

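One further probe set names *CENPA* together with *SLC35F6* and was left out of all counts. It read 9.89, 10.03 and 10.17 in cultures 1, 2 and 3 (10.03 ± 0.14, SD, n = 3), above background on each array.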
